A study of Mus musculus with 4 samples.

Results

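Interleukin-33, its receptor ST2 and the type 2 cytokines downstream of them were followed as 7 genes, Il33, Il1rl1, Il1rap, Il5, Il13, Areg and Il4, among the 31054 features of a single-cell RNA-seq series of the gonadal white adipose tissue (gWAT) of aged mice. The genes were chosen by symbol, each symbol matched exactly 1 row, and the rule used no measured value. Il33 encodes an alarmin, a cytokine that is stored in the nucleus of stromal, epithelial and endothelial cells and released upon damage. Il1rl1 encodes ST2, the chain that binds interleukin-33, and Il1rap encodes the accessory chain that ST2 needs for signalling and that it shares with other receptors of the interleukin-1 family. Group 2 innate lymphoid cells (ILC2s), regulatory T cells (Tregs) and mast cells are the best known cells with ST2, and in adipose tissue stromal interleukin-33 is known for maintaining ILC2s and Tregs. Il5, Il13 and Il4 encode the type 2 cytokines, which act on eosinophils, macrophages and B cells, and Areg encodes amphiregulin, a ligand of the epidermal growth factor receptor linked to tissue repair.

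The cells were stromal vascular cells of gWAT from 18-month-old male mice of the genotype p16-CreERT2/R26-LSL-tdTomato. In these mice tamoxifen, given in all groups, lets the p16-driven Cre recombinase turn on tdTomato for good, so that a Tom+ cell is one in which the Cre was active during dosing. There were 4 groups of 1 library each, sorted by CD45, the surface protein of leukocytes, and by tdTomato: CD45- cells that were Tom+ or Tom-, and CD45+ cells that were Tom+ or Tom-. How many animals gave each library was not given in the sources used here, and no young animals were part of the series. With 1 library per group no difference between groups has a replicate check and no p-value is given. Intervals are 95% exact intervals that cover counting error only.

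After filtering, 3886, 3674, 1927 and 4391 cells were kept in the Tom+ and the Tom- library of the CD45- sort and then the Tom+ and the Tom- library of the CD45+ sort, as labelled (the order used for every set of 4 values), with a median of 18331 to 19516 UMIs per cell. The tdTomato transcript matched the Tom labels, at 713, 15.8, 714 and 18.7 CPM (counts of a gene relative to the total count of the summed cells). Cdkn2a, the locus of p16, was at 6.78, 7.10, 7.30 and 7.57 CPM, in neither pair higher in the Tom+ library, in counts per gene that do not separate p16 from the other transcript of this locus. Ptprc, which encodes CD45, did not follow the CD45 labels, at 217, 157, 223 and 188 CPM, and all 4 libraries held both leukocytes and stromal cells, so libraries are named here by their labels only. Of the 13878 kept cells, 3555 (25.6%) carried a barcode that was also listed in another library, mostly between the 2 Tom- libraries (4394 shared barcodes). Only 1 to 16 barcodes per pair of libraries were kept as cells in both, and where the larger copy had at least 10000 UMIs the smaller held a median of 1.06% to 3.83% of its UMIs. Values without these barcodes were computed for a part of the results only and are given for some of those.

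Cells were clustered without the 7 genes, the pathway genes and tdTomato, and 14 classes covering 85.5% of the cells were named from marker genes. They included adipocyte progenitor cell (APC)-like (3633 cells), mesothelial-like (856), mast-like (616), macrophage-like (2580), neutrophil-like (253), T cell-like (646), Treg-like (34) and ILC2-like cells (16). The mast-like cells held Cma1, a mast cell chymase, at 44864 CPM and the tryptase gene Tpsb2 at 19805 CPM. The ILC2-like cells held Gata3, the transcription factor of the lineage, at 1144 CPM and Calca at 312 CPM, while Nmur1, another ILC2 marker, was at 0 UMIs. Their summed T cell markers stood at 1312 CPM, against 3327 CPM in T cell-like cells. The Treg-like cells held Foxp3 at 392 CPM. Cluster 7 (780 cells) raised all 6 mesothelial and 6 of 7 APC markers and was led by Saa3, Cxcl13, Ptgis and Clu, and it was left unnamed. Fewer cells of a class and less RNA per cell cannot be told apart in a library total, so levels are given per class first.

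The genomic neighbourhood of these genes is shown first because Il4, Il13 and Il5 lie side by side and because GATA3, which the ILC2-like cells hold, and GATA2 of mast cells both bind the letters GATA. On GRCm38 Il4 lies on chromosome 11 at 53602982 to 53618669 (minus strand), Il13 at 53631324 to 53634702 (minus strand) and Il5 at 53720794 to 53725106 (plus strand), with 12.7 kb between Il4 and Il13 and 86.1 kb between Il13 and Il5. Il33 lies on chromosome 19 at 29925114 to 29960718, Il1rl1 on chromosome 1 at 40429570 to 40465415, Il1rap on chromosome 16 at 26581704 to 26730117 and Areg on chromosome 5 at 91139599 to 91148432, all on the plus strand. RefSeq windows of 250 bases before each annotated start (build GRCm38.p6) were matched for all 7 genes, 10 windows in all, and were searched on both strands for the letters AGATAA, with T also allowed as the first letter and G as the last. At least 1 match, none overlapping another, stood in 5 of the 10 windows, against 26.5% of 32851 windows of all genes. The first Il1rl1 window, which ends at the 5′ start of the gene, held 5, at 217, 141, 110, 80 and 54 bases before the start, whereas 6.402% of all windows held 2 or more. The 5 windows with a match are printed 5′ to 3′ on the strand of the gene, with the matched letters in capitals (a match on the opposite strand appears as its complement).
Il1rl1, first start, chr1:40429320-40429569, plus strand: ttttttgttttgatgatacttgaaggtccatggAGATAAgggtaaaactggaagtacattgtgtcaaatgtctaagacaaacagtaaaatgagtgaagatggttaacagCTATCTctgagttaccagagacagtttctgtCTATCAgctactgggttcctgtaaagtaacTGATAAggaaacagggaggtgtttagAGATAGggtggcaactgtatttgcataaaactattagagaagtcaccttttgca
Il1rl1, second start, chr1:40439379-40439628, plus strand: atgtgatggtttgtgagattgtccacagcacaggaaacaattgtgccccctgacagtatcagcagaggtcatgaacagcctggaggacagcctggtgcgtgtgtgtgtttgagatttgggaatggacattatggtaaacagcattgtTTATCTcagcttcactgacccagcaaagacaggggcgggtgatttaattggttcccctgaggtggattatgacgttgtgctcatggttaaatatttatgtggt
Il5, chr11:53720544-53720793, plus strand: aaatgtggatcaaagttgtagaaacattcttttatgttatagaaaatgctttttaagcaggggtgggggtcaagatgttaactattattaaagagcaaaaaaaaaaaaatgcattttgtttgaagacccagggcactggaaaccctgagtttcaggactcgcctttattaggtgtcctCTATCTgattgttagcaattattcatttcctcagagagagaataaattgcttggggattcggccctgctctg
Il13, chr11:53634703-53634952, minus strand: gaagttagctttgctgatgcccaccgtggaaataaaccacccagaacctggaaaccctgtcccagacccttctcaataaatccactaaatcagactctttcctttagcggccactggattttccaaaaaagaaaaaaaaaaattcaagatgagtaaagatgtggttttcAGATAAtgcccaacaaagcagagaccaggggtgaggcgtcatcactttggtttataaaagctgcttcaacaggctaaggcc
Il4, start inside the gene, chr11:53617339-53617588, minus strand: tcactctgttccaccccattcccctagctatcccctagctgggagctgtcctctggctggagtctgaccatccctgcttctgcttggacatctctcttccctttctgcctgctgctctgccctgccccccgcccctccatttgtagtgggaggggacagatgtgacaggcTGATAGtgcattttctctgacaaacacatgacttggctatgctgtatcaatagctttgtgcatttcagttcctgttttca

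A match in such a window is a description of the letters and not a binding site. The windows of Il33 (2), Il1rap and Areg and the window at the 5′ start of Il4 held none of these letters.

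**Figure D1:**
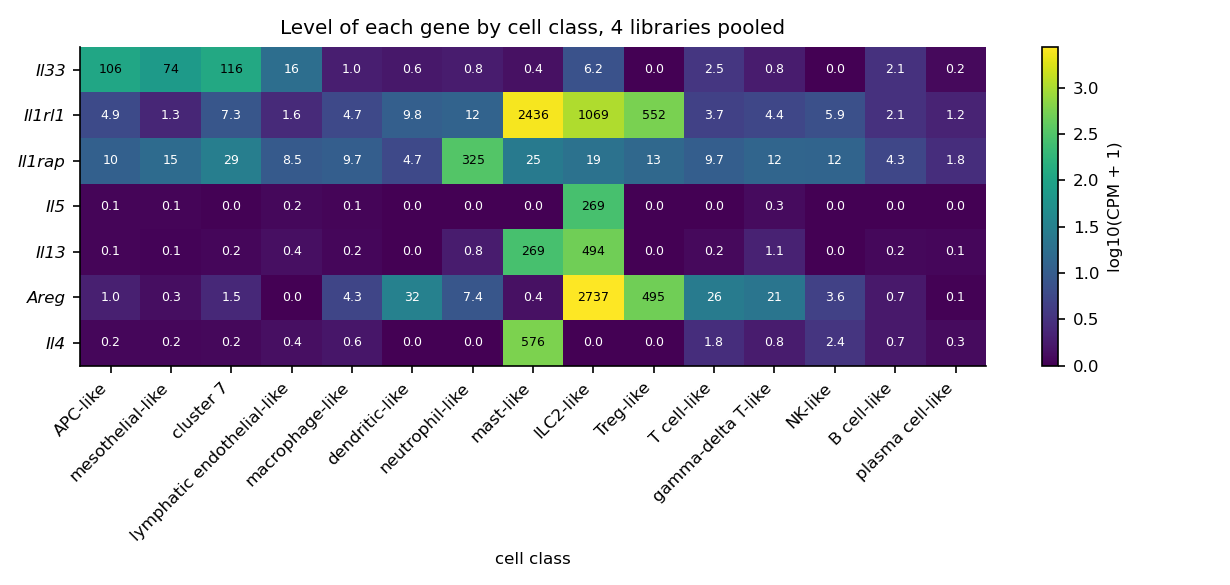
Level of the 7 genes in 14 named classes and cluster 7, all 4 libraries pooled. Colour is log10(CPM + 1) and the printed value is CPM, to be read along each row, since levels of different genes are not compared. Il33 was highest in cluster 7 (116 CPM) and APC-like cells (106), Il1rl1 and Il4 in mast-like cells (2436 and 576), Il1rap in neutrophil-like cells (325), and Il5, Il13 and Areg in ILC2-like cells (269, 494 and 2737). Of the 79 Il13 UMIs of ILC2-like cells 51 lay in 1 cell.

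Il33, the ligand, was a stromal transcript, as the heat map of levels by class and the plot of levels by library show. In APC-like cells its level was 67.8, 109, 102 and 110 CPM in the 4 libraries (406, 3844, 277 and 4654 UMIs), so that the library labelled CD45- Tom+ was the lowest and the other three lay close together. Mesothelial-like cells held 71.8, 69.5, 73.0 and 78.4 CPM, a range within which no library stood apart. Cluster 7 held 114, 108, 116 and 125 CPM. Lymphatic endothelial-like cells, found almost only in the Tom+ libraries, held 13.4 and 22.9 CPM there. Pooled, the order was APC-like (106 CPM, 104 to 108), mesothelial-like (73.8, 70.5 to 77.2) and lymphatic endothelial-like (16.2, 12.9 to 20.1) among named classes, but the library ranges of APC-like and mesothelial-like cells overlapped. Among leukocyte classes no pooled level passed 2.54 CPM except that of the ILC2-like cells, where 1 UMI gave 6.25 CPM (0.158 to 34.8). Macrophage-like cells held 0.650, 1.11, 0.580 and 1.39 CPM, and NK-like and Treg-like cells held no Il33 UMI.

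Of the 14633 Il33 UMIs, APC-like cells held 62.7%, cluster 7 19.5% and mesothelial-like cells 12.98%. The plot of UMI shares by class shows how this split differed with the sort. APC-like cells held 24.2%, 70.4%, 30.9% and 70.6% of the Il33 UMIs of each library, and cluster 7 held 43.2%, 14.8%, 35.8% and 15.04%. Cluster 24, 97 cells that carried APC and plasma cell markers together, held 19.7% and 14.9% of the Il33 UMIs of the 2 Tom+ libraries. An Il33 UMI was present in 44.4% of APC-like cells, 67.5% of mesothelial-like cells and 71.7% of cluster 7, and after each cell was thinned to 2000 UMIs in 13.1%, 12.1% and 20.2%. Plasma cell-like cells, which should lack the gene, had an Il33 UMI in 0.892% of cells (0.0743% thinned) at a median depth of 35970 to 39400 UMIs, against 21439 to 23392 in APC-like cells.

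APC-like cells were not uniform for Il33. The cells led by Fbn1, Mfap5 and Pi16, the last a marker of the interstitial progenitors of fat, held 239 CPM (224 to 254; 151 cells), and those led by Serping1 and Sfrp1 held 221 CPM (215 to 227; 858 cells). By contrast the largest cluster, led by Clec3b and Ogn, held 30.0 CPM (28.0 to 32.1; 1510 cells), and the cluster led by the basement membrane gene Col4a1 held 62.2 CPM (59.1 to 65.4; 864 cells). These intervals do not overlap between the upper and the lower pair of clusters. The median APC-like cell held 0 Il33 UMIs and the highest held 63, while the median was 1 in mesothelial-like cells and 2 in cluster 7. By a likeness rule (Pearson r of log2(CPM + 1) over 14 named classes, given as a description because the classes share their libraries), the 3 genes of 9986 most like Il33 were Kirrel (r = 0.958), Mxra8 (0.957) and Eml1 (0.953).

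**Figure D2:**
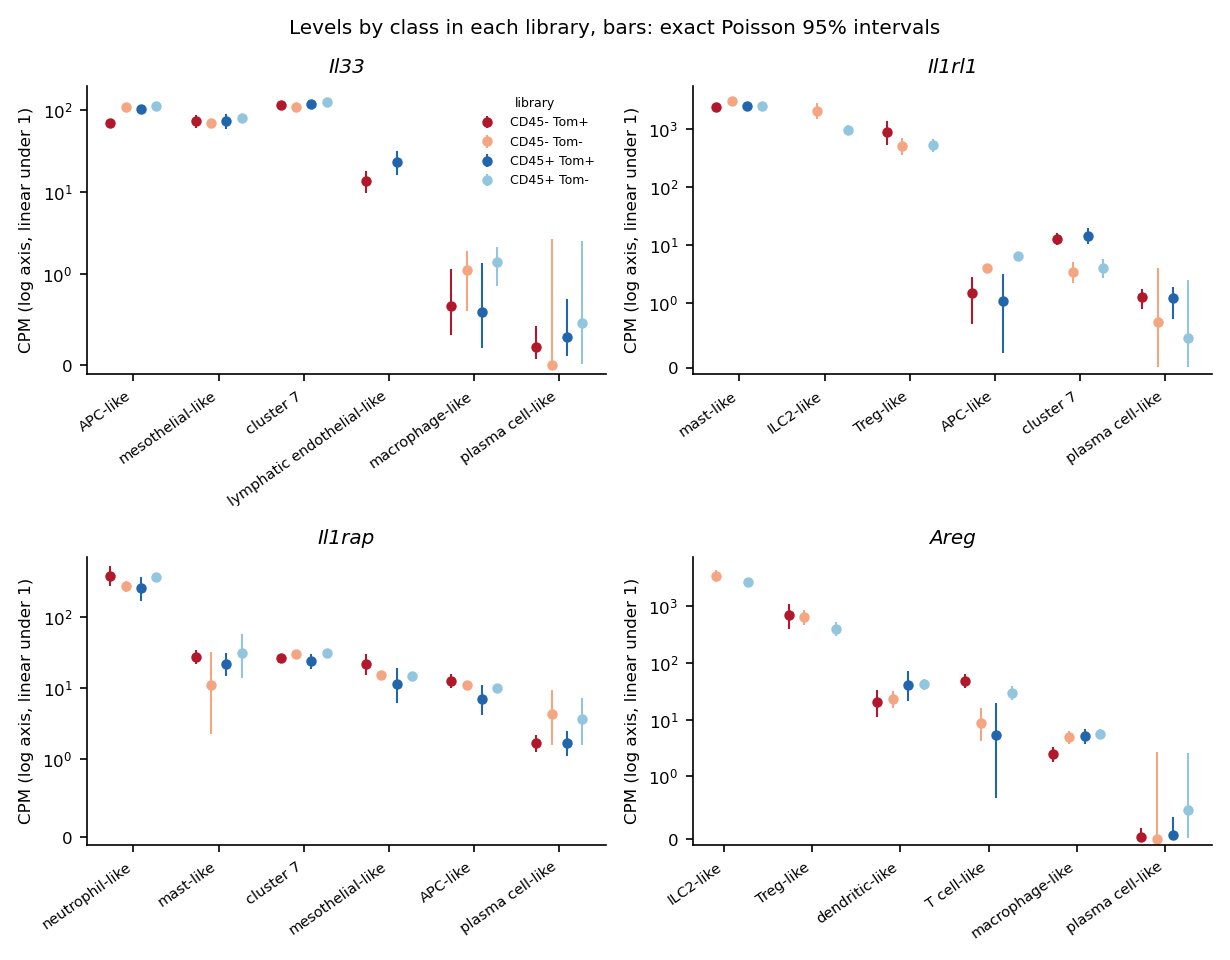
Level of Il33, Il1rl1, Il1rap and Areg in 6 classes each, in CPM on an axis that is linear under 1 and logarithmic above. Each point is 1 library and each bar its exact 95% Poisson interval, and classes with fewer than 2 cells in a library are not drawn. The Il33 points of APC-like cells lie at 67.8 to 110 CPM and the Il1rl1 points of mast-like cells at 2371 to 2991 CPM.

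Il1rl1, the receptor, was found in mast-like, ILC2-like and Treg-like cells. Mast-like cells held 2371, 2991, 2446 and 2460 CPM, and the library labelled CD45- Tom-, with 38 such cells, was the highest. ILC2-like cells held 1757, 2063, 0 and 954 CPM on 1, 2, 1 and 12 cells, so that only the last value rests on more than 2 cells. Treg-like cells held 865, 504, 496 and 525 CPM on 4, 9, 1 and 20 cells. The pooled levels, 2436 CPM (2391 to 2482), 1069 CPM (915 to 1241) and 552 CPM (460 to 659), did not overlap. The next named class, neutrophil-like cells, was at 11.5 CPM (6.31 to 19.4). Clusters 26 and 23, which were left unnamed, lay above it at 69.7 and 25.9 CPM, with mast cell markers summing to 2655 and 54.4 CPM. An Il1rl1 UMI was present in 615 of 616 mast-like cells (97.7% thinned), in 15 of 16 ILC2-like cells and in 16 of 34 Treg-like cells, and in 4.09% of plasma cell-like cells (0.149% thinned). The counts came from the 3′ end of transcripts per gene, so the membrane and the soluble form of ST2, which differ in their 3′ ends, were not separated.

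Mast-like cells held 87.4% of the 12669 Il1rl1 UMIs. This share was 93.98%, 69.4%, 93.7% and 54.3% in the 4 libraries, higher in both Tom+ libraries, where mast-like cells made up 9.26% and 8.93% of the cells against 1.03% and 1.05% in the Tom- libraries. ILC2-like cells held 0.23%, 3.48%, 0% and 8.65% of the Il1rl1 UMIs. In APC-like cells the level was 1.503, 4.02, 1.11 and 6.41 CPM, and few cells carried it. The 9 APC-like cells with at least 10 Il1rl1 UMIs, 11 to 105 each, all lay in the Tom- libraries. Those libraries also held 1539 and 1720 of the 3633 APC-like cells. Of the 9 cells 5 were in the cluster led by Col1a2, Col1a1 and Sparc. All 7 APC markers were present in each of the 9 and their mast cell markers summed to 0 to 5 UMIs. That cluster held 237 Il1rl1 UMIs, 31.8 CPM (27.9 to 36.1), in 11 of its 201 cells. The 3 genes most like Il1rl1 over the classes were Spty2d1 (r = 0.912), Fam46a (0.857) and Ccl1 (0.857).

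Il1rap, the accessory chain, had another pattern. Neutrophil-like cells held 384, 274, 254 and 371 CPM, with overlapping intervals in the 4 libraries and a pooled level of 325 CPM (294 to 359), while the next named class, mast-like cells, held 25.1 CPM (20.7 to 30.1). In mast-like cells the libraries were at 27.5, 11.0, 22.0 and 30.7 CPM, the second of these on 3 UMIs. ILC2-like and Treg-like cells had 3 UMIs each, 18.7 CPM (3.87 to 54.8) and 13.4 CPM (2.76 to 39.1), which could not be told from the 15.1 CPM of mesothelial-like cells at this depth. Cluster 7 held 28.8 CPM (26.7 to 31.0) and APC-like cells 10.5 CPM (9.80 to 11.2). An Il1rap UMI was present in 58.1% of neutrophil-like cells (43.1% thinned), 15.7% of mast-like cells (6.01% thinned) and 6.02% of plasma cell-like cells (0.372% thinned). Neutrophil-like cells, at a median of 3820.5 to 4887 UMIs per cell, gave 11.2% of the 3505 Il1rap UMIs, and APC-like cells gave 25.8%. With each cell weighing the same the neutrophil-like share was 38.3%. Plk3 (r = 0.935), Klhl2 (0.905) and Amer2 (0.889) were most like Il1rap.

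**Figure D3:**
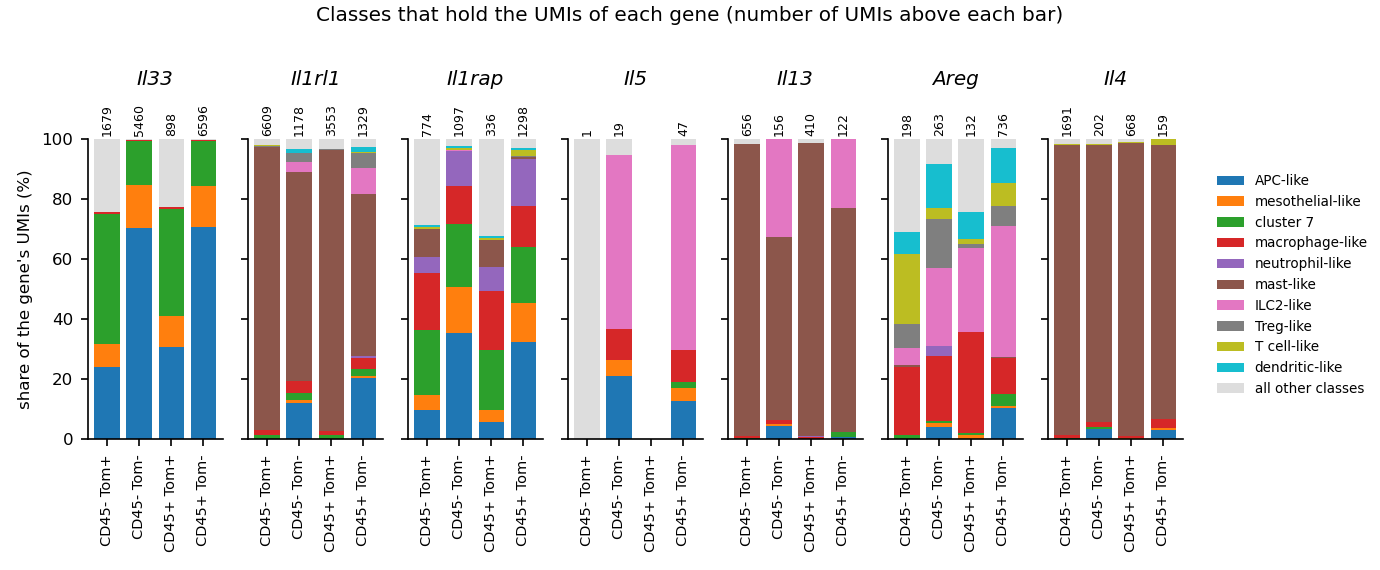
Percent of the UMIs of each gene held by each class, by library, with the number of UMIs above each bar. Mast-like cells hold most Il1rl1, Il13 and Il4 UMIs in every library, ILC2-like cells 57.9% and 68.1% of the Il5 UMIs of the 2 Tom- libraries, and APC-like cells, mesothelial-like cells and cluster 7 nearly all Il33 UMIs of the Tom- libraries (99.5% and 99.3%).

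Il5, the eosinophil growth factor, was rare. Only 67 UMIs were counted, 1, 19, 0 and 47 in the 4 libraries, of which 43 (64.2%, 51.5 to 75.5) lay in 7 ILC2-like cells. The other 24 UMIs lay in 21 cells, with at most 3 in a cell, and included 10 in APC-like and 7 in macrophage-like cells. The ILC2-like level was 0, 554, 0 and 265 CPM and 269 CPM pooled (194 to 362). In the 2 libraries with 1 such cell and a count of 0, a floor of 3 counts would be 351 and 273 CPM. Mast-like and Treg-like cells held no Il5 UMI. Gm14275 (r = 0.985), Il17rb (0.932), which encodes the interleukin-25 receptor chain, and Ccdc184 (0.849) were most like Il5.

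Il13 was counted in mast-like and ILC2-like cells. Mast-like cells held 1223 of 1344 UMIs (91.0%), at 243, 348, 294 and 310 CPM. ILC2-like cells held 79 UMIs (5.88%), of which 51 lay in 1 cell of the library labelled CD45- Tom-. Their pooled level of 494 CPM (391 to 615) rests on 4 cells with 51, 19, 7 and 2 UMIs. In the library labelled CD45+ Tom-, on 12 cells, they held 232 CPM, against 310 CPM in mast-like cells. The pooled order of these classes was thus not the order in that library. The 42 UMIs found elsewhere lay in 42 cells, 1 each. An Il13 UMI was present in 47.4% of mast-like cells (26.8% thinned) and 0.520% of plasma cell-like cells. Gm44851 (r = 0.929), Csf2 (0.928) and Gm973 (0.915) were most like Il13.

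Il4 was a mast cell transcript in these libraries. Mast-like cells held 2619 of 2720 UMIs (96.3%), at 625, 681, 479 and 495 CPM, with the 2 libraries labelled CD45- above the 2 labelled CD45+. In the library labelled CD45+ Tom+ 1 cell held 130 of 652 UMIs. An Il4 UMI was present in 76.8% of mast-like cells (51.6% thinned) and 1.04% of plasma cell-like cells (0.149% thinned). ILC2-like and Treg-like cells had none, with exact upper bounds of 23.1 and 16.4 CPM. The next named class, NK-like cells, held 2.37 CPM (0.287 to 8.56). Tph1 (r = 0.995), the serotonin synthesis enzyme of mast cells, Prss34 (0.993) and Tpsab1 (0.987) were most like Il4. All 6 basophil markers were above 0 in the pooled mast-like cells (Ms4a2 and Fcer1a are also mast cell markers, and Mcpt8 was at 0 in the CD45+ Tom- library), with a sum of 4994, 5608, 5159 and 5483 CPM, so basophils, another source of Il4, were not separated from mast cells, and their part in these values was not tested.

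Areg, the repair ligand, was led by ILC2-like and Treg-like cells. ILC2-like cells held 1288, 3422, 3369 and 2670 CPM and Treg-like cells 692, 638, 248 and 397 CPM. Pooled, these were 2737 CPM (2487 to 3006) and 495 CPM (407 to 596), followed by dendritic-like (31.9, 27.0 to 37.4), T cell-like (26.3, 21.7 to 31.6) and gamma-delta T-like cells (20.8, 16.3 to 26.04), whose library ranges overlapped. Of 1329 Areg UMIs the 16 ILC2-like cells held 33.0%, that is 5.56%, 25.9%, 28.0% and 43.8% of the UMIs of each library, and 1 of these cells held 169 of their 438 UMIs. Macrophage-like cells, at 4.29 CPM, held 17.6% of them on 2580 cells. Of their 234 UMIs 138 lay in the cluster led by Ccr2, Il1b and Lyz2 (24.0 CPM, 20.1 to 28.3; 359 cells), and the other macrophage-like clusters were at 1.51 to 2.61 CPM. Among APC-like cells of the library labelled CD45+ Tom- 78 Areg UMIs lay in 16 cells, 32 and 24 of them in the highest. Mast-like cells held 2 Areg UMIs in all. Asb2 (r = 0.947), Galnt3 (0.905) and Tnfrsf4 (0.904), which encodes the costimulatory receptor OX40, were most like Areg.

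**Figure D4:**
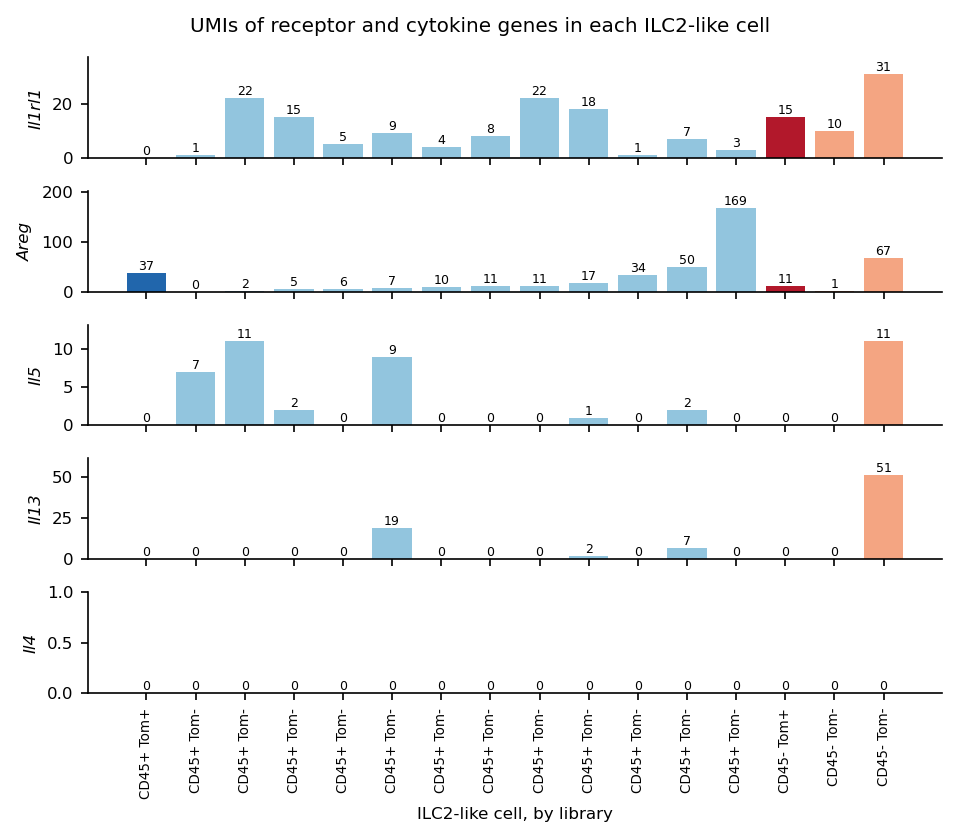
UMIs of Il1rl1, Areg, Il5, Il13 and Il4 in each of the 16 ILC2-like cells, by library. Il1rl1 and Areg are each present in 15 cells, Il5 in 7, Il13 in 4 and Il4 in none.

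The receptor and the cytokines were then followed within single cells. The plot of the 16 ILC2-like cells shows Il1rl1 in 15 (median 8.5 UMIs, highest 31) and Areg in 15 (median 11), with both in 14 cells. The 4 cells with Il13 all held Il5, Areg and Il1rl1 as well. The cell with the most Il13 and Il1rl1, in the library labelled CD45- Tom-, held 51 Il13, 31 Il1rl1, 67 Areg and 11 Il5 UMIs, whereas the cell with 169 Areg UMIs, in the library labelled CD45+ Tom-, held no Il5 and no Il13. Gata3 was present in all 16 and Cd3e, a T cell receptor chain, in 5. Of the 34 Treg-like cells 16 held Il1rl1 and 23 held Areg, 14 of them both, and none held Il5, Il13 or Il4. In mast-like cells 247 of the 292 cells with Il13 (84.6%) also held Il4, against 76.8% of all mast-like cells. Deep cells show more genes, so these shares are descriptions and not tests of coexpression.

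Tom+ and Tom- libraries were compared within each CD45 label, named the CD45- pair and the CD45+ pair. Genes were tested where the mean of the 2 libraries of a pair was at least 5 CPM. Over all cells Il33 was at 17.6, 73.1, 18.9 and 72.2 CPM, a log2 ratio of Tom+ over Tom- of -2.05 (-2.13 to -1.98) and -1.94 (-2.04 to -1.83), in libraries where 19.7% and 18.2% of all genes tested were at least 2-fold lower and the median gene was at -0.46 and -0.47. APC-like, mesothelial-like and cluster 7 cells made up 13.7%, 59.0%, 11.5% and 53.5% of the cells. Il1rl1 stood at 69.3, 15.8, 74.7 and 14.6 CPM, a log2 ratio of 2.13 (2.05 to 2.23) and 2.36 (2.27 to 2.45), against 3.55% and 3.02% of genes at least 2-fold higher. For Il4 the log2 ratio was 2.71 and 3.01. Il1rap was lower at -0.86 and -1.01, and Areg, tested in the CD45+ pair alone, was at -1.54 (-1.82 to -1.27). In such totals the class make-up of the sort and the level per cell cannot be told apart.

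**Figure D5:**
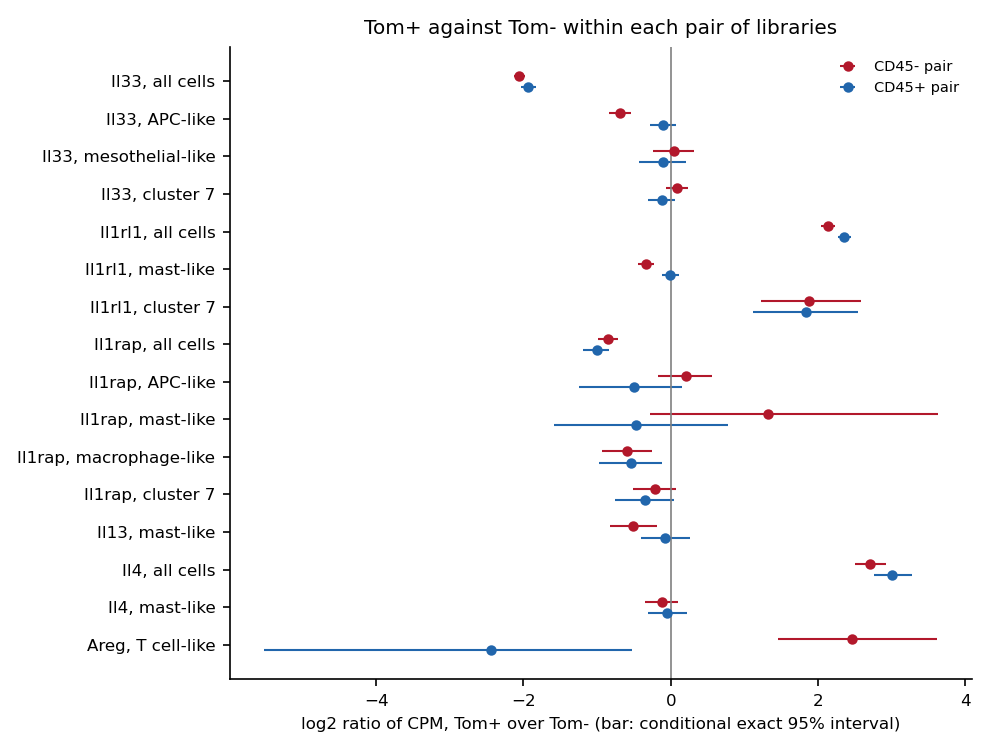
log2 ratio of Tom+ over Tom- for 16 gene and class combinations, in both CD45 pairs, with conditional exact 95% intervals for counting error. Il33 in mesothelial-like cells and cluster 7 lies near 0 in both pairs (-0.12 to 0.09), and Il1rl1 in cluster 7 lies at 1.88 and 1.83.

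Within APC-like, mesothelial-like and cluster 7 cells Il33, and within mast-like cells Il1rl1, Il13 and Il4, were within 2-fold in both pairs, and the plot of Tom+ over Tom- ratios sets them beside members that were not. In APC-like cells the Il33 log2 ratio was -0.68 (-0.83 to -0.54) in the CD45- pair and -0.10 (-0.28 to 0.07) in the CD45+ pair, where 0.151% and 0.498% of genes were at least 2-fold lower. Neither value reached 2-fold. With cells thinned to 2000 UMIs the values were -1.02, past 2-fold, and 0.13. With the APC-like clusters set to 1 mix they were -0.45 and -0.10, and without barcodes found in more than 1 library they were -0.32 and 0.40, so the direction in the CD45+ pair was not stable. Within clusters the pairs also differed: the Clec3b and Ogn cluster was at -0.63 (-1.13 to -0.16) and -2.01 (-3.34 to -0.96), the Serping1 and Sfrp1 cluster at -0.51 (-0.74 to -0.29) and 0.01 (-0.22 to 0.25), and the Col1a2 cluster at -0.58 (-1.14 to -0.07) and 0.59 (0.20 to 0.95), the last on 11 Tom+ cells. Plasma cell markers summed to 2044, 387, 2858 and 372 CPM and macrophage markers to 346, 148, 177 and 151 CPM in the APC-like cells of the 4 libraries, and their part in the Il33 ratios was not tested. In mesothelial-like cells the Il33 ratio was 0.05 (-0.24 to 0.32) and -0.10 (-0.43 to 0.21), and in cluster 7 0.09 (-0.06 to 0.23) and -0.12 (-0.30 to 0.06).

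In mast-like cells Il1rl1 was at -0.33 (-0.44 to -0.23) and -0.01 (-0.12 to 0.11), where 16.8% of genes differed at least 2-fold in either direction in both pairs, on 38 and 46 Tom- cells. A median mast-like cell held 14, 18, 16 and 13.5 Il1rl1 UMIs. For Il13 the ratio was -0.52 (-0.83 to -0.19) and -0.08 (-0.41 to 0.27), and without the cell with the most UMIs in each library it was -0.09 (-0.46 to 0.30) and 0.23 (-0.16 to 0.63). For Il4 it was -0.12 (-0.34 to 0.10) and -0.05 (-0.31 to 0.22). The receptor and both cytokines of mast-like cells were thus within 2-fold between Tom+ and Tom- cells in both pairs.

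Il1rl1 in cluster 7 differed at least 2-fold in both pairs, a case singled out after its values were seen. It stood at 12.8, 3.46, 14.4 and 4.05 CPM (81, 26, 40 and 32 UMIs), with both Tom+ libraries above both Tom- libraries. The log2 ratio was 1.88 (1.23 to 2.58) and 1.83 (1.12 to 2.55), and 1.36% and 2.06% of genes in this cluster were at least 2-fold higher. UMIs lay in 32 of 199, 13 of 255, 14 of 79 and 10 of 247 cells, and in the last library 1 cell held 23 of the 32. Without the highest cell of each library the ratios were 2.29 and 3.22. They were not computed without barcodes found in more than 1 library. In APC-like cells Il1rl1 went the other way, at -1.42 (-2.58 to -0.46) and -2.53 (-4.82 to -0.97), on 9 against 142 and 3 against 272 UMIs. Its mean there was under 5 CPM in both pairs, so it was not tested. A single cell held 51 of the 142 UMIs and another 105 of the 272. In macrophage-like cells Il1rl1 was at 0.73 (0.22 to 1.26) and 0.88 (0.27 to 1.49), with a mean under 5 CPM in the CD45+ pair. Mast cell markers in macrophage-like cells summed to 126, 31.5, 125 and 22.1 CPM, higher in both Tom+ libraries, and their part in these ratios was not tested. Mast cell markers in cluster 7 summed to 143, 136, 108 and 152 CPM, higher in the Tom+ library of 1 pair and lower in that of the other, and 89.4, 25.4, 133 and 26.7 Il1rl1 UMIs were counted per 1000 mast marker UMIs, against 18.6 to 21.8 in mast-like cells. Of the 8 mast cell markers 7 or 8 were above 0, and Ms4a2 was at 0 in both libraries labelled CD45+. Plasma cell markers, all 6 of them above 0 in each library, summed to 2907, 343, 2392 and 342 CPM, higher in both Tom+ libraries. Macrophage markers, all 7 of them above 0, summed to 97.0, 61.7, 88.2 and 56.9 CPM, also higher in both Tom+ libraries. What RNA from mast cells, plasma cells or macrophages adds to the Il1rl1 difference in cluster 7 was not tested.

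Other members passed 2-fold on few UMIs. In cluster 13, which held endothelial and mural markers, Il1rap was at 2.49 (0.34 to 5.68) and 2.58 (0.10 to 5.92) on 13 against 2 and 6 against 2 UMIs, where 6.06% and 5.99% of genes were at least 2-fold higher. In T cell-like cells Il1rl1 was at 2.001 (0.04 to 4.50) in the CD45- pair on 10 against 3 UMIs, where 3.98% of genes were at least 2-fold higher. Without the highest cell of each library it was at 2.07 (-0.32 to 5.38). Mast cell markers in the T cell-like cells of this pair summed to 252 against 98.7 CPM, and their part was not tested. Areg there was at 2.47 (1.46 to 3.62) and -2.45 (-5.53 to -0.53), where 9.87% of genes in the CD45+ pair were at least 2-fold lower, and a single cell held most of the UMIs on the higher side of each pair. Under the looser filter on cells these Areg ratios turned to -1.65 and 4.13. Il1rap in T cell-like cells of the CD45+ pair was at -1.40 (-4.51 to 0.60) on 2 against 27 UMIs, and in gamma-delta T-like cells at 1.06 (-0.44 to 2.74) on 13 against 6 UMIs, where 6.3% of genes were at least 2-fold higher. Il1rap in mast-like cells was at 1.32 (-0.28 to 3.63) and -0.48 (-1.59 to 0.78), against 8.21% of genes at least 2-fold higher in the first, and in macrophage-like cells at -0.59 (-0.94 to -0.25) and -0.54 (-0.97 to -0.12), within 2-fold. Areg in gamma-delta T-like cells was at 1.21 (-0.10 to 2.90) and 0.82 (-0.74 to 2.54), and 6.04% of genes were at least 2-fold higher in the first. Without the highest cell of each library these were 1.25 (-0.21 to 3.19) and 2.94 (0.05 to 8.42). ILC2-like and Treg-like cells were too few in the Tom+ libraries (2 and 5 cells) for a ratio.

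The wider pathway was followed with a list of 49 genes, the 7 members included. Among the other alarmins Tslp, which encodes thymic stromal lymphopoietin, was highest in lymphatic endothelial-like cells (10.7 CPM, 8.02 to 13.9), while Il25 was counted 4 times in all. Crlf2, the receptor chain for that ligand, was highest in mast-like (203 CPM) and neutrophil-like cells (186). Among the relay genes Nfkb1 was highest in ILC2-like cells at 2612 CPM (2368 to 2875), followed by mast-like cells at 787 CPM, and Tnfaip3, a brake on the same route, stood at 2581 CPM in ILC2-like and 1395 CPM in Treg-like cells. Among cytokines Csf2 was at 425 CPM (330 to 539) in ILC2-like and 25.1 CPM in mast-like cells, and Il9 and Il3 had no UMI in any kept cell. Of the receptors, Egfr, the receptor of amphiregulin, was highest in APC-like cells (280 CPM, then mesothelial-like at 84.4), Il4ra in ILC2-like cells (225) and Il5ra in plasma cell-like cells (36.9). Of the response genes, Arg1 (2267 CPM), Mrc1 (422) and Retnla (144) were highest in macrophage-like cells, Ccl22 (336) in dendritic-like cells, and Ccl11, which encodes the eosinophil attractant eotaxin, in APC-like cells (833).

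Between Tom+ and Tom- the list was counted within classes. In APC-like cells 3 of 27 tested genes were at least 2-fold higher and 0 lower in the CD45- pair, and 2 of 26 higher and 0 lower in the CD45+ pair, with medians of -0.10 and -0.10 against -0.03 and -0.04 over all genes, of which 1.54% and 1.09% were at least 2-fold higher. Irf4 was higher there in both pairs (log2 ratio 3.23 and 3.81), at 16.7, 1.78, 19.2 and 1.37 CPM. Irf4, a plasma cell transcription factor, was highest in plasma cell-like cells (169 CPM), followed by B cell-like (150 CPM) and gamma-delta T-like cells (55.7 CPM). The summed plasma cell markers given above for APC-like cells were also higher in both Tom+ libraries, and their part in the Irf4 ratios was not tested. In macrophage-like cells 3 of 32 were higher and 2 lower (1.03% and 1.37% of all genes), then 0 higher and 3 lower (1.05% and 1.59%). Among them Irf4 was higher in the CD45- pair, Ccl11 lower in both pairs and Ccl24 lower in the CD45+ pair. Plasma cell markers summed to 2037, 366, 1826 and 335 CPM and APC markers to 345, 649, 351 and 702 CPM in these cells. Their part in these counts was not tested. The genes linked to alternative activation moved in both directions. Chil3 was lower in both pairs (-1.14 and -1.44, at 94.7, 209, 84.4 and 230 CPM). Retnla was at 1.22 and 0.71 and Clec10a at 1.12 and 0.76, at least 2-fold higher in the CD45- pair alone. Mrc1 was at 0.90 and 0.87, within 2-fold. In mast-like cells 2 of 33 were higher and 4 lower, then 1 higher and 2 lower, where 8.21% and 8.54%, then 7.98% and 8.85% of all genes were. In gamma-delta T-like cells 5 of 28 were higher in the CD45- pair and 6 of 30 in the CD45+ pair, where 6.04% and 6.3% of all genes were. Irf4, Retnla, Mrc1 and Clec10a were among them in both pairs. Chil3 was lower in the first pair and Rela and Stat6 in the second. Plasma cell markers summed to 5200, 520, 4056 and 368 CPM and macrophage markers to 337, 141, 233 and 114 CPM in these cells. Their part in these counts was not tested. Cluster 19 held macrophage, plasma cell and cycling markers. In its CD45+ pair, on 51 Tom+ and 33 Tom- cells, 7 of 31 were lower, where 10.8% of all genes were.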

How the data were processed

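The authors processed barcodes and UMIs with Cell Ranger 3.0.2 against mm10 (submitters' processing notes) and deposited, for each library, a matrix of whole-number UMI counts per gene and barcode without normalization. These deposited counts were the only values used. Barcodes needed 1000 to 7000 genes (both bounds excluded) and less than 8% of UMIs from mitochondrial genes, as in the study (4145, 4038, 1981 and 4818 passed). Doublets were scored by Scrublet in scanpy 1.11.5, and the highest-scoring 0.8% of cells per 1000 barcodes of each library (259, 364, 54 and 427 cells) were left out. Cells were clustered on 2000 variable genes, 30 components, 15 neighbours and Leiden resolution 1 (leidenalg 0.10.2), and lymphoid clusters were clustered again. A class was named where at least 3 of its markers were at 20 CPM or more and at least 4-fold above the median cluster. No unrelated class was allowed to have nearly as large a share of its markers raised. A lymphoid subclass needed 50% of its markers raised, and Treg-like cells also Foxp3. For ILC2-like and NK-like cells the summed Cd3 genes had to be at most 25% of those of the highest lymphoid sub-cluster. Cluster names are rebuilt here and may differ from those of the study.

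UMIs were summed per library and class and divided by the sum of all UMIs. Levels carry exact Poisson intervals, shares Clopper-Pearson intervals and ratios conditional exact intervals (scipy 1.17.1), at 95% and tested on simulated data. The simulated counts were independent draws, without the clumping of UMIs in single cells described above. How the intervals hold under such clumping was therefore not tested. For ratios and the Il5 limits a count of 0 was set to a floor of 3 counts, which is under the exact upper bound. Ratios needed at least 50 cells per library (30 for mast-like cells and where so few were present, chosen after the data were seen). They also needed a mean of at least 5 CPM over the 2 libraries of the pair. Positions came from GENCODE vM21 and promoters from RefSeq. Genes named as most like a member were the top 3 by r among those with 20 CPM in any class. The test of the study, over single cells, was not used, since a library is the replicate. The members and lists were chosen with earlier results of these data known.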

Additional observations from a re-analysis of the deposited data

Results flagged for a closer look

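Areg in T cell-like cells moved in opposite directions in the CD45- and the CD45+ pair. It stood at 48.7, 8.81, 5.44 and 29.7 CPM in the Tom+ and Tom- libraries of the CD45- pair and those of the CD45+ pair, which gave a log2 ratio of Tom+ over Tom- of 2.47 (1.46 to 3.62) and -2.45 (-5.53 to -0.53). The result was set apart because the direction differed between the pairs, and with 1 library per group the difference was not tested. In the library labelled CD45- Tom+ 1 cell held 35 of the 46 UMIs, and in the library labelled CD45+ Tom- 1 cell held 42 of the 56. Without the cell with the most UMIs in each library the ratios were 0.73 (-0.72 to 2.24) and -1.43 (-6.83 to 1.29). With at least 500 genes and a mitochondrial share under 20% as the filter on cells, both directions turned, to -1.65 and 4.13.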

How the results depend on the processing

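With 1 library per group no value has replicate error, the classes were rebuilt from markers, 25.6% of kept cells share a barcode with another library, and ILC2-like and Treg-like values rest on 16 and 34 cells. No paired analysis was possible because each group has 1 library and no replicate number. Leaving out libraries, 30 cells as the minimum, 1 mix of APC-like clusters and leaving out the highest cell were chosen after seeing the data.

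The share of Il33 UMIs in APC-like cells (62.7%) became 59.9% under a looser filter (500 genes or more, mitochondrial share under 20%), 61.6% with doublets kept, 65.9% at Leiden resolution 2 and also with 4000 variable genes, 64.7% with cells thinned to 2000 UMIs, 65.2% with each cell weighing the same and 60.7% without barcodes found in more than 1 library. Leaving out each library in turn gave 56.3% to 67.7%. The mast-like share of Il1rl1 (87.4%) became 83.4% under the looser filter, 84.6% with doublets kept, 93.7% thinned, 93.4% with equal cells and 92.1% without shared barcodes, and 80.3% to 91.3% with a library left out. The mast-like share of Il13 (91.0%) became 87.4% with doublets kept, 93.9% thinned and 93.7% with equal cells, and 85.2% to 94.9% with a library left out. That of Il4 (96.3%) became 95.5% under the looser filter, 94.1% with doublets kept, 97.7% thinned, 97.8% with equal cells and 97.4% without shared barcodes. The ILC2-like share of Areg (33.0%) became 27.7% under the looser filter, 29.1% with doublets kept and 42.2% without shared barcodes, and ranged from 19.6% without the library labelled CD45+ Tom- to 37.8% without that labelled CD45- Tom+. The neutrophil-like share of Il1rap (11.2%) became 9.60% under the looser filter, 40.5% thinned, 38.3% with equal cells and 20.2% without shared barcodes, and 8.74% to 12.9% with a library left out.

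The Il33 level in APC-like cells (106 CPM) became 90.9 thinned, 92.5 with equal cells, 74.6 without shared barcodes and 110.0 without immunoglobulin and mitochondrially encoded genes. The Il1rl1 level in mast-like cells (2436 CPM) became 2295 with doublets kept and 2643 without those genes. The Il33 log2 ratio in APC-like cells of the CD45- pair (-0.68) became -0.44 under the looser filter, -0.52 with doublets kept, -0.49 at resolution 2 and with 4000 variable genes, -1.02 thinned, -0.32 without shared barcodes and -0.45 in 1 cluster mix. In the CD45+ pair (-0.10) it turned to 0.13 thinned and 0.40 without shared barcodes. Over all cells of the CD45- pair (-2.05) it became -1.82 under the looser filter, -1.92 thinned, -1.46 without shared barcodes and -1.63 without immunoglobulin and mitochondrially encoded genes. In the CD45+ pair (-1.94) it became -1.69, -1.65, -1.40 and -1.50 under the same settings and -1.77 with equal cells. The all-cell Il1rl1 ratio ranged over the settings from 1.54 to 2.56 in the CD45- pair and from 2.13 to 2.82 in the CD45+ pair. For Il4 the ranges were 1.92 to 3.14 and 2.23 to 3.45. The Areg ratios in T cell-like cells turned to -1.65 and 4.13 under the looser filter.

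The number of genes at least 2-fold apart in APC-like cells of the CD45- pair (168) became 286 under the looser filter, 99 with doublets kept, 264 at resolution 2 and with 4000 variable genes, 861 thinned, 41 with a minimum of 20 CPM and 5339 with none. In the CD45+ pair (156) it became 326, 295 at resolution 2, 329 with 4000 variable genes, 1634 thinned, 37 with 20 CPM and 6521 with no minimum. The cause of these changes was not tested.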
